A study of Rattus norvegicus with 24 samples.

Results

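The genes described here mark GABA interneurons, the inhibitory cells of the cortex, in the medial prefrontal cortex of young rats. They are 9 genes of the 32883 listed in each library, taken by Ensembl gene ID: Gad1 (ENSRNOG00000000007), Gad2 (ENSRNOG00000018200), Slc32a1 (ENSRNOG00000015393), Sst (ENSRNOG00000001837), Pvalb (ENSRNOG00000006471), Npy (ENSRNOG00000009768), Vip (ENSRNOG00000018808), Cck (ENSRNOG00000019321) and Calb2 (ENSRNOG00000016977). All 9 passed the filter on low counts, which kept 14930 genes. The study sequenced oligo-dT selected RNA from the bilateral cortex of Sprague Dawley offspring on postnatal day 45. Their birth had been induced with oxytocin, the hormone that drives uterine contraction, or saline had been given as the control. The 4 labelled groups were oxytocin males, saline males, oxytocin females and saline females, with 6 libraries each and 24 in all. The question of the study was whether induction of birth with oxytocin leaves a trace in the cortex of the offspring of either sex.

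GABA interneurons are a minority of cortical neurons, and they set the timing and gain of the excitatory cells around them. Every one of them makes GABA with the enzymes encoded by Gad1 and Gad2 and loads it into vesicles with the transporter encoded by Slc32a1. Subclasses are told apart by what else they make. Fast-spiking basket and chandelier cells contain the calcium buffer parvalbumin (Pvalb), dendrite-targeting cells release somatostatin (Sst), and cells that mostly inhibit other interneurons release vasoactive intestinal peptide (Vip) or contain calretinin (Calb2). Npy encodes neuropeptide Y, made by several subclasses, and Cck encodes cholecystokinin, which is made by a class of basket cells and also, as transcript, by many excitatory cortical neurons.

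The libraries held 15.9 to 24.3 M estimated reads, and a count of 0 would allow up to 0.123 to 0.189 CPM (reads of a gene scaled to a fixed library total), depending on the library. Group names follow the sample labels, while 24 of 24 files are named for the opposite sex and the opposite treatment. In all labelled female libraries 4 genes had 100 or more reads, with 1 or fewer in every labelled male library. The reverse held for 0 genes. The 4 genes could not be named, so the labelled sex was not settled. The labels may be reversed, which leaves the direction of every treatment difference below uncertain. For this reason sex and treatment are given throughout as labelled. If the file names were right, each treatment difference below would belong to the other sex with its sign turned, and each difference between the labelled sexes would turn its sign. The correlations and spreads within groups would stay as they are, because the libraries of a group would stay together. Litters are not given in the labels and siblings, if any, were counted separately, so p-values measure only the spread between these libraries. A litter shares its induction of birth, so siblings would not be independent, within a labelled sex or across the sexes. Treatment intervals could then be too narrow and p-values too small.

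RefSeq windows around the annotated start (assembly GRCr8, 250 bases before the start and 50 from it on, 300 in all) were found for 7 of the 9 genes, all but Cck and Calb2. The sequences of the 3 general GABA genes are shown because Gad2 correlated with both of the others across libraries, as described below. In each, capitals mark TATAAA, the core of a TATA box, or TGACG, the core of the cAMP response element, searched on both strands. The Gad2 stretch is the plus strand of chr17:89671468-89671717 and the Slc32a1 stretch the plus strand of chr3:167686995-167687244, each ending just before the annotated start. The Gad1 stretch is the plus strand of chr3:75777202-75777259, the bases before the outermost annotated start.
Gad2: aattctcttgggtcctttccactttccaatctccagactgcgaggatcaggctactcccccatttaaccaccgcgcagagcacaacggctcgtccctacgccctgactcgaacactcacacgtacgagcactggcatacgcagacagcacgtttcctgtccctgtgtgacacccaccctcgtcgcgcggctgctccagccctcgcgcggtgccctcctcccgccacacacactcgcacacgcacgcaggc
Slc32a1: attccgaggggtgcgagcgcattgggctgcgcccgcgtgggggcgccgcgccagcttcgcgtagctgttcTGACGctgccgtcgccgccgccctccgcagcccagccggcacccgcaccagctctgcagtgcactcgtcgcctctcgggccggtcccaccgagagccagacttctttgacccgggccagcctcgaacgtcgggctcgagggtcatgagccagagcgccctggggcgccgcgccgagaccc
Gad1: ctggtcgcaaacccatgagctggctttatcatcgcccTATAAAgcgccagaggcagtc
No match for either motif lies in the printed Gad2 stretch. The printed Slc32a1 stretch has 1 core site, which begins 180 bases before the start, and the printed Gad1 stretch has 1 TATAAA, which begins 213 bases before the annotated start that its window is built on. All 3 windows were rich in G and C, with 67.7% for Gad1, 63.7% for Gad2 and 73.7% for Slc32a1 against a median of 51.7% over 33469 windows. They held 26, 29 and 42 CpG dinucleotides, against a median of 7.

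Among the other 4 windows, those of Npy and Pvalb were also rich in G and C, with 67.7% and 60.7% and 23 CpG dinucleotides each. Those of Sst and Vip had 45.7% and 44.0% G and C and 11 and 4 CpG dinucleotides. Sst and Vip are shown because Vip passed the test of correlation with Gad1 while Sst had an r near 0, and because the whole palindrome TGACGTCA, the cAMP response element, is a classical feature of the somatostatin gene. The Sst stretch is the plus strand of chr11:90461535-90461564 and the Vip stretch the plus strand of chr1:44470370-44470399, with the element or its core site in capitals.
Sst: gcgcctccttggcTGACGTCAgagagagag
Vip: gggatcaccactgTGACGtctttcgaggag
In Sst the palindrome begins 2 bases after the annotated start base. In Vip the core site begins 97 bases before the annotated start that its window is built on. Only 2 bases of the Vip window and 0 of the Pvalb window lie before the outermost annotated start. The core sites of Vip and Pvalb thus lie within the annotated gene. Positions are counted from annotated starts, and where transcription begins in these libraries was not tested. Of all 33469 windows, 1.83% held the palindrome, 21.2% the core site and 14.2% TATAAA. Among the 7 windows, 1 held the palindrome, 4 the core site (Slc32a1, Sst, Pvalb and Vip) and 2 TATAAA (Gad1 and Vip). Each palindrome also counts as a core site on both strands. A match describes letters only and shows no binding.

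Transcript levels per length, in the deposited TPM (transcripts scaled to a fixed total), spanned a wide range. Cck was highest at 964 TPM and Sst followed at 685 TPM, means over 24 libraries. Pvalb stood at 293 TPM and Gad1 at 121 TPM. In 24 of 24 libraries these 4 kept the order Cck, Sst, Pvalb, Gad1 above Slc32a1, and the ranges of neighbours did not overlap.

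Slc32a1 at 78.5 TPM and Gad2 at 74.2 TPM were close, with Slc32a1 higher in 20 of 24 libraries and overlapping ranges. Npy at 56.5 TPM was below Gad2 in 23 of 24 libraries, and Vip at 41.3 TPM was below Npy in 22 of 24, again with overlapping ranges. Calb2 was lowest at 10.2 TPM, below Vip in every library. All 9 defining genes were thus well above 0, with a mean of 170 estimated reads per library for the lowest, Calb2, and 10611 for the highest, Cck. Because libraries come from tissue pieces, fewer cells of a type and less RNA per cell cannot be told apart in any of these values.

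The ratio between the 2 GABA-making enzymes was steady. Gad1 over Gad2, in TPM, ran from 1.41 to 1.78 with a median of 1.63 over 24 libraries. Its group medians were 1.63 in saline males, 1.65 in oxytocin males, 1.60 in saline females and 1.66 in oxytocin females, all labelled. The ratio of the parvalbumin gene to the somatostatin gene varied more, from 0.328 to 0.613 with a median of 0.420. The highest value was in labelled oxytocin male 2, whose Sst of 517 TPM was the lowest of the 24 libraries. In the other groups the highest value was 0.518, in labelled saline females. The ranges of all 4 groups overlapped. Both ratios were chosen after the levels had been seen.

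**Figure D1:**
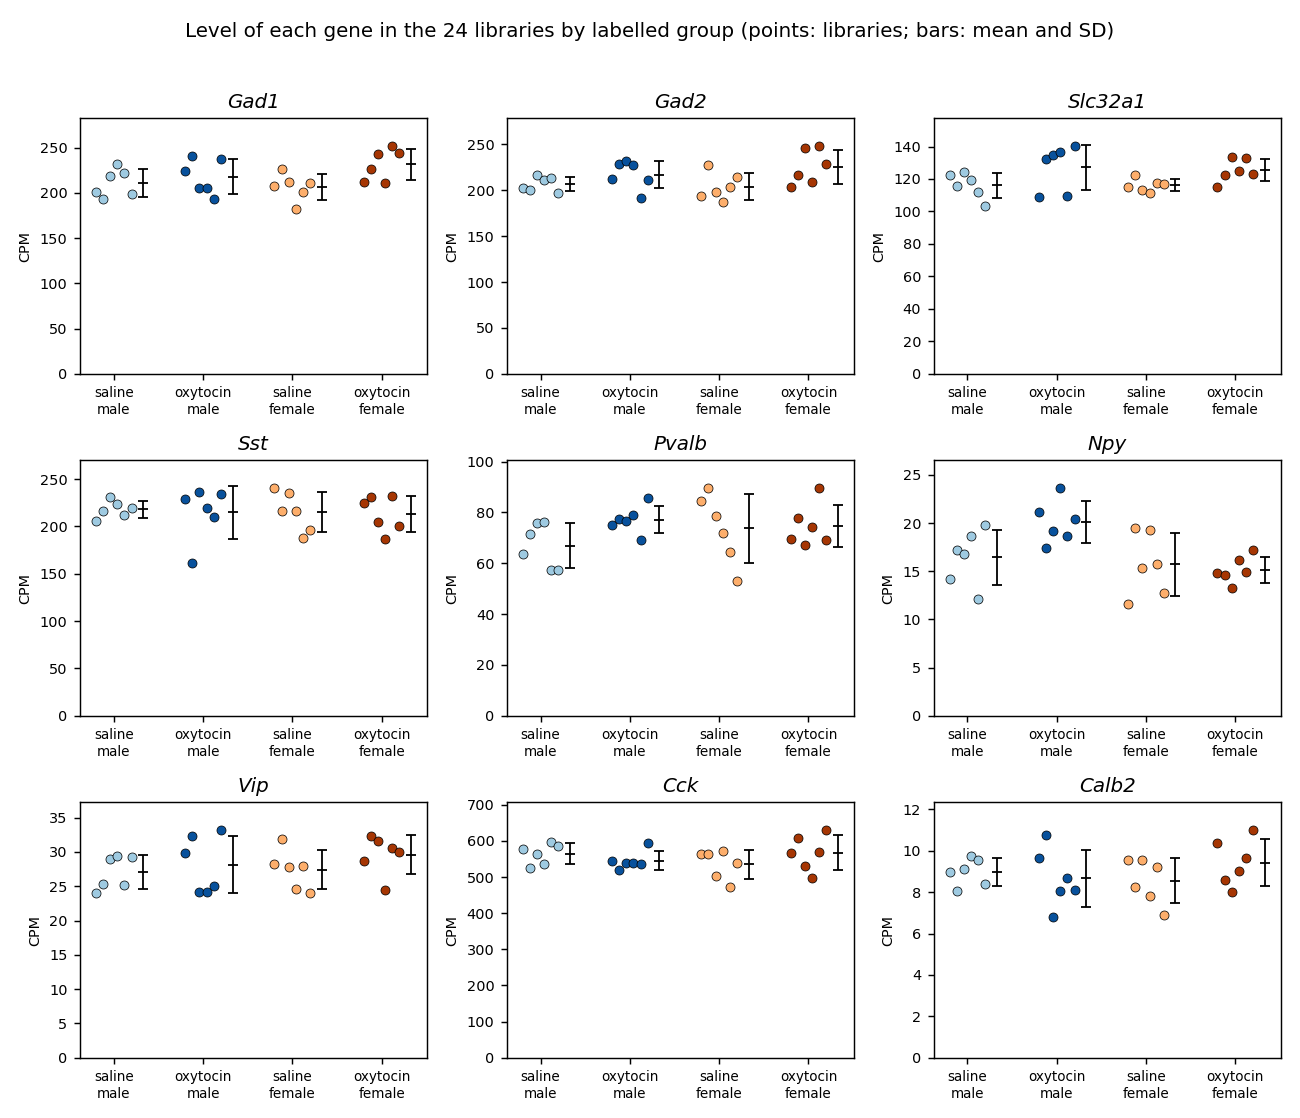
CPM of each gene (vertical axis, from 0) in the 6 libraries of each labelled group (points), with mean and SD beside them. The groups overlap in every panel, and in labelled oxytocin males 1 Sst library, at 162 CPM, lies apart from the other 5.

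For the comparison of oxytocin with saline, levels are given in CPM scaled by TMM, a correction for the composition of libraries. Gad1, whose enzyme makes most of the GABA of the cell body, stood at 193, 210 and 232 CPM (lowest, median, highest of 6) in labelled saline males and at 193, 215 and 241 CPM in oxytocin males. In labelled females it stood at 183, 209 and 227 CPM with saline and at 211, 235 and 252 CPM with oxytocin. Here all 6 oxytocin libraries lay above the saline median and 3 above the highest saline library. The log2 fold change was 0.05 (SE 0.06) in labelled males and 0.16 (SE 0.06) in labelled females, and neither was called (edgeR's quasi-likelihood test, Benjamini-Hochberg adjusted p = 0.852 and 0.290, unadjusted p = 0.461 and 0.0123).

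Gad2 encodes the enzyme found mostly at nerve terminals. It stood at 197, 207 and 216 CPM in labelled saline males and 192, 220 and 232 CPM in oxytocin males. In labelled females the values were 187, 201 and 227 CPM with saline and 204, 223 and 249 CPM with oxytocin. As for Gad1, 3 female oxytocin libraries exceeded every saline library. The log2 fold changes were 0.07 (SE 0.05) in labelled males and 0.14 (SE 0.05) in labelled females, with edgeR adjusted p = 0.697 and 0.297.

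Slc32a1, the vesicular GABA transporter gene, was at 103, 117 and 124 CPM in labelled saline males and 109, 133 and 140 CPM in oxytocin males. Here 4 oxytocin libraries were above all saline libraries and the other 2, oxytocin male 1 and 5, were near the low end of the saline range at 109 and 110 CPM. In labelled females it was at 112, 116 and 122 CPM with saline and 115, 124 and 134 CPM with oxytocin, and 5 of 6 oxytocin libraries were above every saline library. The log2 fold changes were 0.13 (SE 0.06) and 0.11 (SE 0.06), with edgeR adjusted p = 0.387 and 0.433.

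Averaged over the labelled sexes, these 3 general GABA genes had similar differences. The log2 fold change was 0.10 for Gad1 (95% interval 0.02 to 0.19), 0.11 for Gad2 (0.03 to 0.19) and 0.12 for Slc32a1 (0.04 to 0.20), or 7.47%, 7.67% and 8.71% higher in labelled oxytocin libraries. By the file names these 3 genes would be lower with oxytocin. Their unadjusted p-values were 0.0222, 0.0100 and 0.00671 in edgeR's quasi-likelihood test. None passed after adjustment over all genes (adjusted p = 0.226, 0.167 and 0.146). The lowest adjusted p that any alternative or left-out library gave for any of the 9 genes was 0.0687, for Slc32a1 without oxytocin male 5. The 3 genes were measured in the same libraries and are not 3 separate observations.

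Among the subclass genes, Sst, the gene of the peptide of dendrite-targeting interneurons, had the estimate closest to 0 in each labelled sex. It stood at 206, 218 and 231 CPM in labelled saline males, 162, 224 and 237 CPM in oxytocin males, 187, 216 and 241 CPM in saline females and 187, 215 and 233 CPM in oxytocin females. The log2 fold change was −0.02 in labelled males (95% interval −0.18 to 0.14) and −0.01 in labelled females (−0.17 to 0.14), with edgeR adjusted p = 0.960 and 0.964. In labelled males its sign rested on oxytocin male 2, the library at 162 CPM, and without it the log2 fold change was 0.05 (edgeR adjusted p = 0.856).

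Pvalb, the marker of fast-spiking interneurons, was at 57.2, 67.7 and 76.2 CPM in labelled saline males and 69.2, 77.1 and 85.6 CPM in oxytocin males. All 6 oxytocin libraries were above the saline median and 4 above the highest saline library. In labelled females the spread between libraries was wider, with 53.2, 75.2 and 89.7 CPM for saline and 67.3, 71.9 and 89.5 CPM for oxytocin, so that the oxytocin range lay inside the saline range. The log2 fold changes were 0.20 (SE 0.10, edgeR adjusted p = 0.485) in labelled males and 0.02 (SE 0.10, edgeR adjusted p = 0.972) in labelled females.

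Npy, the neuropeptide Y gene, had the largest fold change of the 9 genes in labelled males. In labelled males it was at 12.1, 17.0 and 19.8 CPM with saline and 17.4, 19.8 and 23.7 CPM with oxytocin. In labelled females it was at 11.6, 15.5 and 19.5 CPM with saline and 13.3, 14.9 and 17.2 CPM with oxytocin. For Npy, 3 of 6 male oxytocin libraries exceeded every saline library, whereas no female one did. The log2 fold change was 0.29 (95% interval 0.04 to 0.53) in labelled males and −0.05 (−0.30 to 0.20) in labelled females, with edgeR adjusted p = 0.341 and 0.904. The difference between these 2 fold changes, the interaction, was 0.34 on the log2 scale (SE 0.17, edgeR unadjusted p = 0.0548, adjusted p = 0.686). A response that differs between the labelled sexes was therefore not shown.

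Vip, Cck and Calb2 overlapped between treatments in both labelled sexes. Vip was at 24.1, 27.2 and 29.5 CPM in labelled saline males, 24.1, 27.4 and 33.2 CPM in oxytocin males, 24.04, 27.9 and 31.8 CPM in saline females and 24.5, 30.3 and 32.3 CPM in oxytocin females. In labelled oxytocin males its 6 libraries fell into 3 above every saline library and 3 near the low end of the saline range, as the plot of levels shows. Its log2 fold changes were 0.05 and 0.11 in labelled males and females (edgeR adjusted p = 0.880 and 0.633). Cck was at 526, 570 and 598 CPM in labelled saline males and 520, 539 and 594 CPM in oxytocin males, where only 1 of 6 oxytocin libraries lay above the saline median.

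In labelled females Cck was at 472, 551 and 572 CPM with saline and 498, 568 and 631 CPM with oxytocin. Its log2 fold changes had opposite signs, −0.05 and 0.08 (edgeR adjusted p = 0.798 and 0.544), and the interaction had an edgeR unadjusted p of 0.0925 and an adjusted p of 0.757. Calb2 was at 8.07, 9.04 and 9.77 CPM in labelled saline males, 6.78, 8.39 and 10.8 CPM in oxytocin males, 6.90, 8.72 and 9.57 CPM in saline females and 8.00, 9.32 and 11.02 CPM in oxytocin females. Its log2 fold changes were −0.05 and 0.14 (edgeR adjusted p = 0.905 and 0.592), with 95% intervals of −0.26 to 0.16 and −0.07 to 0.35.

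**Figure D2:**
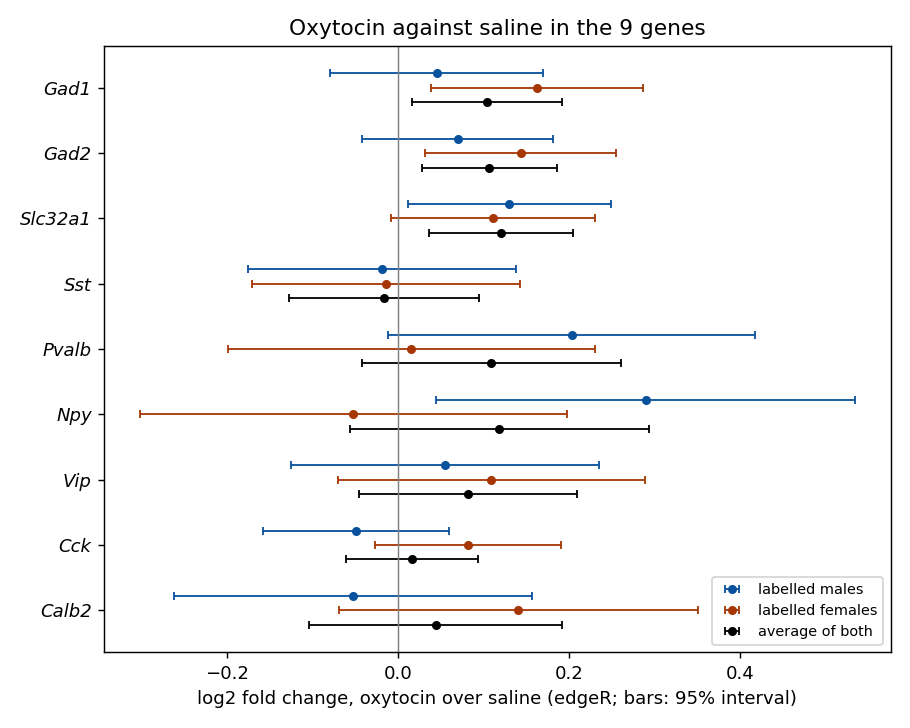
Log2 fold change of labelled oxytocin over saline for each gene (horizontal axis), with 95% intervals, in labelled males, in labelled females and averaged. Average intervals of Gad1, Gad2 and Slc32a1 lie above 0 before any adjustment for the number of genes, and no interval reaches 1, a 2-fold change.

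Counted over the list, 0 of 9 genes were called in labelled males, where 0.161% of the 14930 tested genes were called (edgeR adjusted p of at most 0.05). Likewise 0 of 9 were called in labelled females (0.0067% of all genes), on average (0.362%), in the interaction (0% of all genes) and between the labelled sexes (0.228%). DESeq2 and limma also called 0 of the 9 in each of these comparisons. At an unadjusted p under 0.05 in edgeR there were 2 of 9 in labelled males (Slc32a1 and Npy), against 11.2% of all genes. In labelled females there were 2 of 9 (Gad1 and Gad2), against 12.4%, and on average 3 of 9 (Gad1, Gad2 and Slc32a1), against 16%. In the interaction there were 0 of 9, against 7.29%, and the estimate was above 0 in 3 of 9, against 51%.

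The point estimates were above 0 in 6 of 9 genes in labelled males (49.6% of all genes), 7 of 9 in labelled females (50.5%) and 8 of 9 on average (50%), Sst being the exception on average. The median log2 fold change of the 9 genes was 0.05 in labelled males, 0.11 in labelled females and 0.10 on average, while the median over all tested genes was 0.00 in each. The direction of Sst, Pvalb, Npy, Cck and Calb2 turned in at least 1 of these 3 comparisons when single libraries were left out, so these counts rest partly on values near 0. Oxytocin and saline libraries overlapped for 9 of 9 genes in both labelled sexes. Of all tested genes, 1.19% did not overlap in labelled males and 0.73% in labelled females. No gene of the 9 differed 1.5-fold or more in any comparison.

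Compared between labelled males and females over both treatments, 4 of the 9 genes had a higher estimate in labelled males and 5 a lower one (51.2% of all genes were higher). By the file names it would be 5 higher and 4 lower in males. Npy had the largest difference, a log2 fold change of 0.23 (95% interval 0.06 to 0.41), which was not called and would turn its sign by the file names (edgeR unadjusted p = 0.0112, adjusted p = 0.325). It was the only one of the 9 with an unadjusted p under 0.05, a level that 9.99% of all genes reached. For the other 8 genes the log2 fold change lay between −0.05 and 0.01, with edgeR adjusted p from 0.837 to 0.963.

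Within groups the genes differed in how much single libraries varied. The coefficient of variation (CV, SD over mean of CPM, pooled over the 4 groups) was lowest for Cck at 6.61%, Gad2 at 6.81%, Slc32a1 at 7.18% and Gad1 at 7.68%. It was 9.44% for Sst, 11.1% for Vip, 12.4% for Calb2, 13.0% for Pvalb and 15.2% for Npy. In CPM the 3 general GABA genes and Cck thus varied less than the other 5 genes, an order that was not tested. In the deposited TPM it did not hold throughout, since Gad1 at 9.19% was above Sst at 8.87%.

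Counting error grows as levels fall, so each gene was set beside tested genes within 1.2-fold of its mean CPM. Pvalb was more variable than 93.0% of 994 such genes, whose median CV was 6.03%. Npy was more variable than 89.0% of 1225. Sst was more variable than 91.8% of 388, but without oxytocin male 2, the library at 162 CPM, its CV was 7.26% and the share 74.0%, and it then varied less than Gad1 (7.51%) and Slc32a1 (7.65%). Calb2, at 170 estimated reads per library, was more variable than 55.4% of 1037, so its spread was close to that of other genes at its level. The other genes lay between these, from 68.9% for Cck to 82.9% for Vip.

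**Figure D3:**
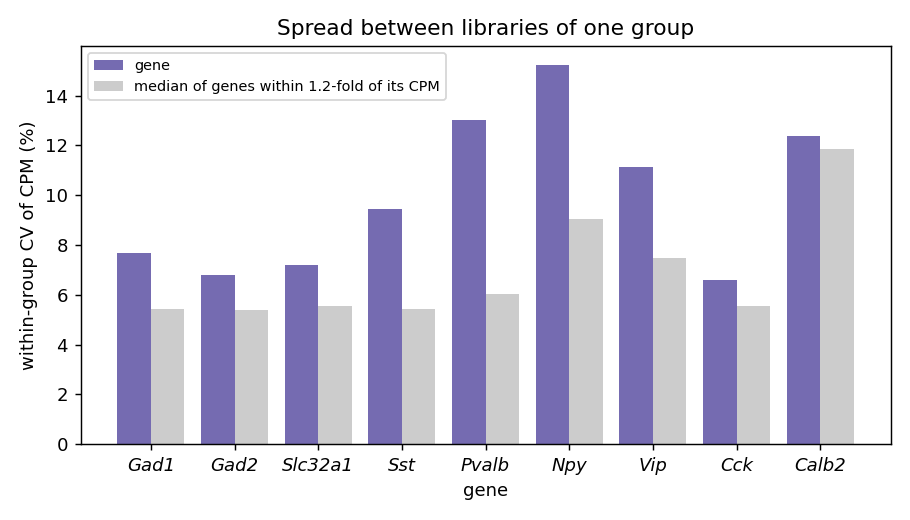
Within-group CV of CPM in percent (vertical axis) for each gene, beside the median of tested genes within 1.2-fold of its CPM. Pvalb at 13.0% stands above its comparison median of 6.03%, while Calb2 at 12.4% is near its own of 11.9%.

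Correlation between the genes was measured on log2 CPM after the mean of each group had been taken away, so that neither treatment nor labelled sex enters. Of 36 pairs, 3 passed (permutation test with 100000 permutations of libraries within groups, two-sided, adjusted over 36 pairs), all positive. Gad1 and Gad2 had r = 0.70 over 24 libraries (Spearman rho 0.67, permutation p = 0.00056 and 0.00082, adjusted p = 0.00924 and 0.0164). Gad2 and Slc32a1 had r = 0.65 (rho 0.65, permutation p = 0.00029 and 0.00091, adjusted p = 0.00924 and 0.0164). Gad1 and Vip had r = 0.71 (rho 0.67, permutation p = 0.00077 and 0.00188, adjusted p = 0.00924 and 0.0226). In these 3 pairs r was positive in all 4 groups of 6, from 0.34 to 0.94 for Gad1 and Gad2, from 0.53 to 0.92 for Gad2 and Slc32a1 and from 0.39 to 0.93 for Gad1 and Vip.

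The 3 calls held with any 1 library left out (permutation test, highest adjusted p = 0.0376, for Gad1 and Vip) but not with 2 left out together. Leaving out the extremes of a gene narrows its range, which can by itself lower r. Without the 2 libraries farthest from the median of the first gene, r was 0.58 for Gad1 and Gad2 (without saline female 4 and oxytocin male 5), 0.54 for Gad2 and Slc32a1 (without saline female 2 and oxytocin male 5) and 0.67 for Gad1 and Vip (without saline female 4 and oxytocin male 5). The permutation p was then 0.00897, 0.00494 and 0.00256, and adjusted over 36 pairs it was 0.0749, 0.0596 and 0.0596, so that 0 pairs passed and 3 calls ended. All genes of a library share its dissection, its RNA and its depth, and the part of these in the correlations was not tested.

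Other pairs did not pass by Pearson's r. Gad1 and Slc32a1 had r = 0.44 (rho 0.40, permutation p = 0.0632 and 0.0807, adjusted p = 0.285 and 0.363). Sst and Pvalb, which mark different subclasses, had r = 0.46 (permutation p = 0.017, adjusted p = 0.122) but rho = 0.60 (permutation p = 0.00253, adjusted p = 0.0228). Oxytocin male 2, low in Sst at 162 CPM and close to its group mean in Pvalb, lay far from the rest. Without it and saline female 5 r was 0.61 (permutation p = 0.00497, adjusted p = 0.0596), which did not pass either. In this pair r was positive in all 4 groups, from 0.17 to 0.75.

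Slc32a1 and Pvalb had r = 0.41 (permutation p = 0.0108, adjusted p = 0.0975). Correlation of Sst with the general GABA genes was not detected, with r = −0.03 to Gad1, −0.09 to Gad2 and −0.05 to Slc32a1 (unadjusted permutation p = 0.907, 0.720 and 0.893, adjusted p = 0.960, 0.953 and 0.960). To Gad1 it was 0.39 in labelled saline males, 0.13 in saline females, 0.24 in oxytocin females and −0.37 in oxytocin males. In the last group oxytocin male 2 lay at −0.40 for Sst and 0.15 for Gad1 from the group mean. To Gad2 r was positive in 2 of 4 groups and to Slc32a1 in 1 of 4. Npy had r between −0.15 and 0.29 to every other gene. The most negative of the 36 values was −0.24, for Slc32a1 and Calb2, and 23 of 36 were positive with a median of 0.13.

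**Figure D4:**
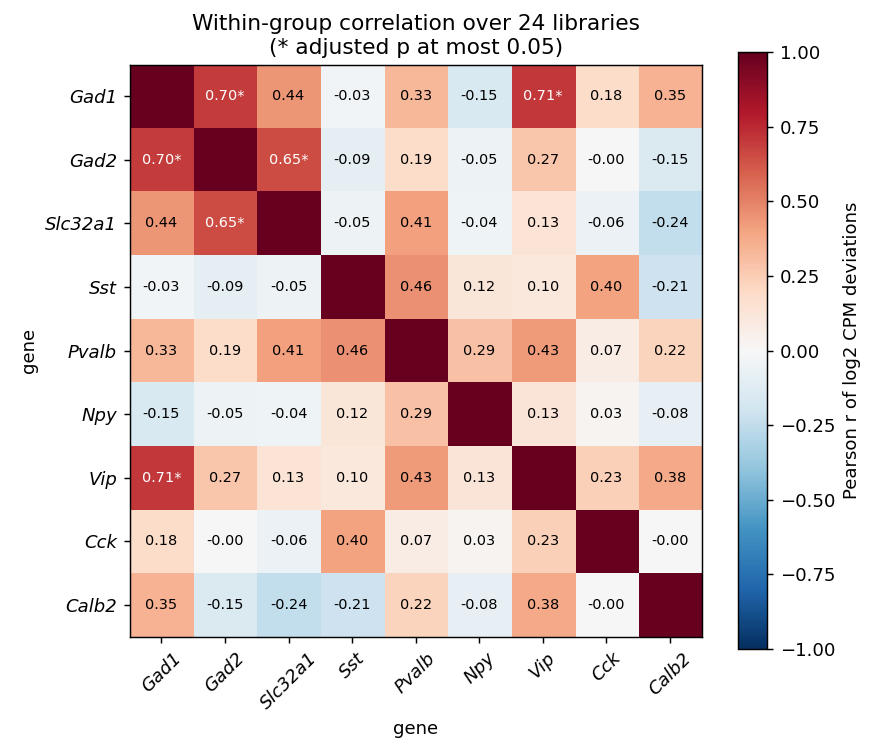
Pearson r of log2 CPM deviations from the group mean over 24 libraries, for each pair of the 9 genes (both axes are genes, colour is r). Asterisks mark the 3 pairs with an adjusted p of at most 0.05, Gad1 with Gad2, Gad1 with Vip and Gad2 with Slc32a1.

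To see how common such values are, all 111444985 pairs of tested genes were measured the same way. Their median r was 0.00 and 1.07% of them reached 0.6, a level reached by 3 of the 36 pairs, or 8.33%. Among all tested genes, Vip ranked 5 and Gad2 ranked 7 in likeness to Gad1. Gad1 ranked 13 in likeness to Gad2, and Gad2 ranked 28 in likeness to Slc32a1. For Sst, Pvalb, Npy, Cck and Calb2 the nearest of the other 8 genes ranked from 834 to 1564. Whether such ranks differ from those of 8 genes taken at random was not tested. For every gene of the list the most alike tested gene lay outside the list.

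Of the 9 genes, Pvalb had the most tested genes at r of at least 0.7, with 169. Cck had 42 and Sst 39, against 2 for Npy and 2 for Calb2. Over all pairs of tested genes, 0.333% reached 0.7. The gene most like Pvalb was ENSRNOG00000016385 (r = 0.92 over 24 libraries), and the gene most like Cck was ENSRNOG00000032729 (r = 0.85). These are the 2 highest values for any of the 9 genes, and neither ID could be matched to a name.

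**Figure D5:**
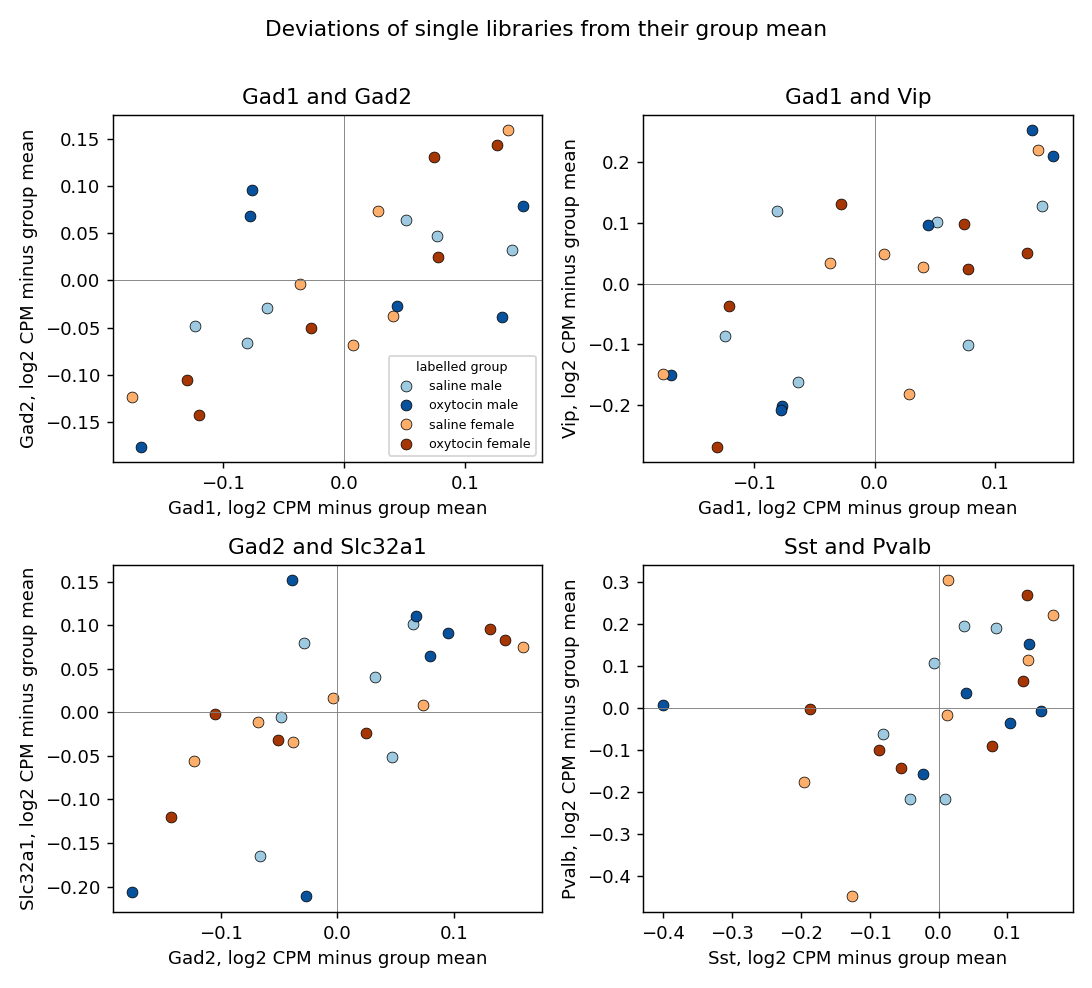
Log2 CPM minus the group mean in each of the 24 libraries (points, coloured by labelled group) for 4 pairs of genes, one gene on each axis. Libraries of all groups lie along a rising band in the first 3 panels, while in the panel of Sst and Pvalb 1 library, oxytocin male 2, lies to the left at −0.40 for Sst.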

How the data were processed

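Each library has 1 deposited table, which per the file headers lists for every gene its lengths, TPM and NumReads, an estimated count. The build was Rnor_6.0 and the tools DRAGEN and bcl2fastq, per the submitters' processing notes. Versions, annotation and strand setting: not given in the sources used here. The deposited TPM values were made by the authors and used only for levels between genes.

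The authors' estimated counts were rounded and fitted with edgeR 4.0.16 in R 4.3.3: filterByExpr (minimum count 10, total 15), TMM, 1 mean per group over 24 libraries, robust quasi-likelihood, Benjamini-Hochberg adjustment over 14930 genes, limit 0.05. The biological coefficient of variation was 10.5%. Chi-square per degree of freedom was at least 4.83 between any libraries of a group, so none was counted as a repeat. Correlations used log2 CPM with a prior count of 2. DESeq2 1.42.0 and limma 3.58.1 were alternatives. Fits and correlations were tested on simulated data.

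Intervals cover the spread between libraries, and floors counting error only. The members and lists were chosen with earlier results of these data known. All 9 genes are named, with the gene most like each, limited to 2 IDs where no name could be matched. The reference names 0 of the 32883 IDs, so the 9 names come from the definition of the set, and lists of other interneuron, excitatory, striatal, glial, vascular and sex-linked markers could not be tested.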

Additional observations from a re-analysis of the deposited data

Results flagged for a closer look

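Of 36 sets of 6 libraries (9 genes in 4 groups), 2 held a library far from the other 5, and chance gives about 1.8 of 36. Sst in oxytocin male 2 stood at 162 CPM, the next lowest library of its group at 210 CPM. In that library Calb2 deviated most the other way, by 0.32 on the log2 scale above its group mean. Cck in oxytocin male 6 stood at 594 CPM, the next highest at 545 CPM.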

How the results depend on the processing

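The count of the 9 genes called was 0 in all 162 combinations of comparison and setting. Counts over all genes, 24, 1, 54, 0 and 34 for labelled males, labelled females, their average, the interaction and the labelled sexes, moved more. DESeq2 gave 157, 45, 350, 2 and 102, and limma 125, 190 and 70 for males, average and sexes. Fits of a labelled sex alone gave 116 in males and 0 in females. Leaving out 1 library gave 0 to 106 in males, 1 to 6 in females, 9 to 334 on average and 29 to 60 between sexes. The count in males was 0 without any 1 of 8 labelled male libraries (saline 1, 2, 3, 5 and 6 and oxytocin 1, 3 and 4), and the lowest on average came without saline male 2. The highest came without saline female 2 in males and on average, and without saline female 6 in females and between sexes. The cause was not tested.

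Libraries of different groups share only a replicate number in the labels. In 3 of 36 same-numbered pairs the correlation of deviations exceeded 0.1, and 10 of 24 libraries were most like their own number. The mean r was 0.027 for same-numbered pairs and −0.005 for pairs of other numbers and groups. Whether this link exceeds chance was not tested. With the number as a block 9 genes were called in males and 1 in the interaction, 0 of the 9 described here among them, and 6 pairs of the 9 genes correlated against 3.

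The 3 correlated pairs became 0 in labelled males alone, with 12 libraries, and 0 without the 2 libraries farthest from the median of the first gene, and were 2 in labelled females alone, 4 by Spearman, 4 with TPM and 3 to 4 with 1 library left out. In labelled males alone r was 0.49 for Gad1 and Gad2, against 0.70 in all libraries. It was 0.74 for Gad1 and Vip, against 0.71, and 0.64 for Gad2 and Slc32a1, against 0.65.

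Of 333 fold changes under other settings 330 kept their direction. The exceptions came with limma, −0.0067 for the Slc32a1 interaction and, between sexes, 0.0002 for Gad2 and −0.0049 for Sst. With 1 library left out, 39 of 1080 changed direction, all near 0. Sst ran from −0.0478 to 0.0509 in males, −0.0506 to 0.0207 in females, −0.0347 to 0.0186 on average, −0.0399 to 0.0646 in the interaction and −0.0039 to 0.0498 between sexes. Slc32a1 ran from −0.0116 to 0.0589 in the interaction and −0.006 to 0.0293 between sexes. Cck ran from −0.0005 to 0.0321 on average and −0.0079 to 0.0271 between sexes, and Calb2 from −0.1216 to 0.01 in males and −0.0601 to 0.0058 between sexes. In females Pvalb ran from −0.0627 to 0.0801 and Npy from −0.1256 to 0.0218. The CV of Gad1 was 9.19% in TPM against 7.68%. Calb2 rested on the fewest reads, 129 to 204 a library.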

Other observations

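Single libraries stood on one side of their group for most of the 9 genes. Saline female 2 was above its group mean in 8 of 9 and highest of its group in 6 of 9. Saline male 3, saline male 4 and oxytocin female 5 were above theirs in 8 of 9 each. Oxytocin male 5 and oxytocin female 4 were above theirs in 1 of 9 each, with median deviations of −0.15 and −0.11 on the log2 scale. Other tissue markers could not be read in these libraries by name, so whether they moved along was not tested.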
